A study of Mus musculus with 3 samples.

Results

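The kinesin and cytoplasmic dynein genes were examined in RNA-Seq of tdTomato-positive cells sorted from mouse hippocampus. Protein-coding genes of the count table were taken by symbol (Kif or Kifc and a number, Klc1 to Klc4, or a name starting with Dync), which gave 54 of the 52636 genes listed. These were 42 kinesin motor genes, 4 kinesin light chain genes, 7 cytoplasmic dynein genes and Kif1bp, which the symbol rule includes although its product binds kinesins and is not a motor. The rule used gene symbols and no measured value, although it was written with earlier results of these data known. All libraries belonged to a single group of 3 biological replicates, each pooled from 2 to 4 male C57BL/6J mice of postnatal day 28 to 32 with the genotype Camk2a-Cre +/-, Ai14 +/-. Camk2a-Cre drives Cre recombinase from the Camk2a promoter in forebrain excitatory neurons, and Ai14 is a reporter allele that makes tdTomato once Cre has acted. Whole hippocampi were dissociated with papain, live tdTomato-positive cells were sorted, and poly(A) RNA was sequenced. There was no treatment, genotype or cell type to set against this group, so the comparisons are between genes within the same libraries.

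Kinesins and dyneins are ATP-driven motors that walk along microtubules. In axons, where microtubules point outward, most kinesins carry vesicles, organelles and RNA granules away from the cell body and cytoplasmic dynein carries cargo back, while the microtubules of dendrites run in both directions. Kinesin-1 is a tetramer of a pair of heavy chains, encoded by Kif5a, Kif5b and Kif5c, and a pair of light chains that help to choose cargo. Cytoplasmic dynein-1 is built on the heavy chain Dync1h1 with intermediate, light intermediate and light chains, and needs dynactin and an adaptor to move far. Other kinesins shorten microtubules, act in cilia or build the mitotic spindle.

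All libraries held 15833075 to 48159841 assigned counts, a 3.04-fold range in depth, and replicate 1 was the deepest. The members took 0.619%, 0.572% and 0.553% of counts in replicates 1, 2 and 3, and values given below as a series of 3 follow the same order. Levels are in TPM over nuclear protein-coding genes, a length-corrected share of the counts computed with the merged exon length of each gene, and values after ± are SDs over the 3 replicates. Of 8 CA1 pyramidal markers, 7 were matched by symbol and all 7 were detected, with a median of 249 ± 2.66 TPM and 450 ± 56.5 TPM for Fibcd1. The 6 dentate granule markers were detected as well, with a median of 127 ± 7.29 TPM and 621 ± 31.3 TPM for C1ql2, so the sorted cells are called here by their reporter and not by the CA1 label. The 8 oligodendrocyte markers were all detected, at 821, 905 and 811 summed TPM, and the astrocyte markers (6 of 7 detected) at 260, 162 and 327. The oligodendrocyte markers did not share a single order over the replicates. Mbp, the highest, had 317, 467 and 321 TPM, while Olig2, the lowest, had 10.1, 3.07 and 5.73 TPM. Endothelial markers (3 of 5 detected) summed to 9.94, 25.1 and 80.7 TPM and were highest in replicate 3. By the detection level given below, 56.9% of nuclear protein-coding genes other than the members were detected. In such bulk samples, fewer cells of a type and less RNA per cell cannot be told apart, and the part of these other cells in the motor levels was not tested.

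The kinesin motor domain binds ATP through a P-loop, a short stretch near its catalytic centre. A P-loop of the form glycine, glutamine, threonine, any residue, any residue, glycine, lysine, and then threonine or serine was encoded in frame in 33 of the 42 kinesin motor genes and in 0 of the other 12 members. Over all 21444 nuclear protein-coding genes with a complete coding sequence, 0.163% encoded this form, and the only 2 that were not members were Cenpe and Stard9, which are kinesin genes under other names, at 1.22 ± 0.397 and 8.86 ± 1.27 TPM. Another 7 kinesins (Kif18a, Kif18b, Kif19a, Kif20a, Kif20b, Kif22 and Kif23) matched when the glutamine could be any residue, a wider form that 0.662% of these genes encoded, and Kif26a and Kif26b matched neither. Only these forms were searched for, so the 0 among the other 12 members does not mean that dynein heavy chains lack a P-loop. The place of the motif differed between genes. It began in the first 15% of the codons in 23 genes, such as codon 86 of 1027 in Kif5a and codon 100 of 725 in Kif3a. It began at 15 to 50% in 6 genes, among them Kif2a at codon 312 of 743, and beyond 50% in 4 genes, the kinesin-14 genes Kifc1, Kifc2, Kifc3 and Kifc5b, as at codon 486 of 792 in Kifc2.

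**Figure D1:**
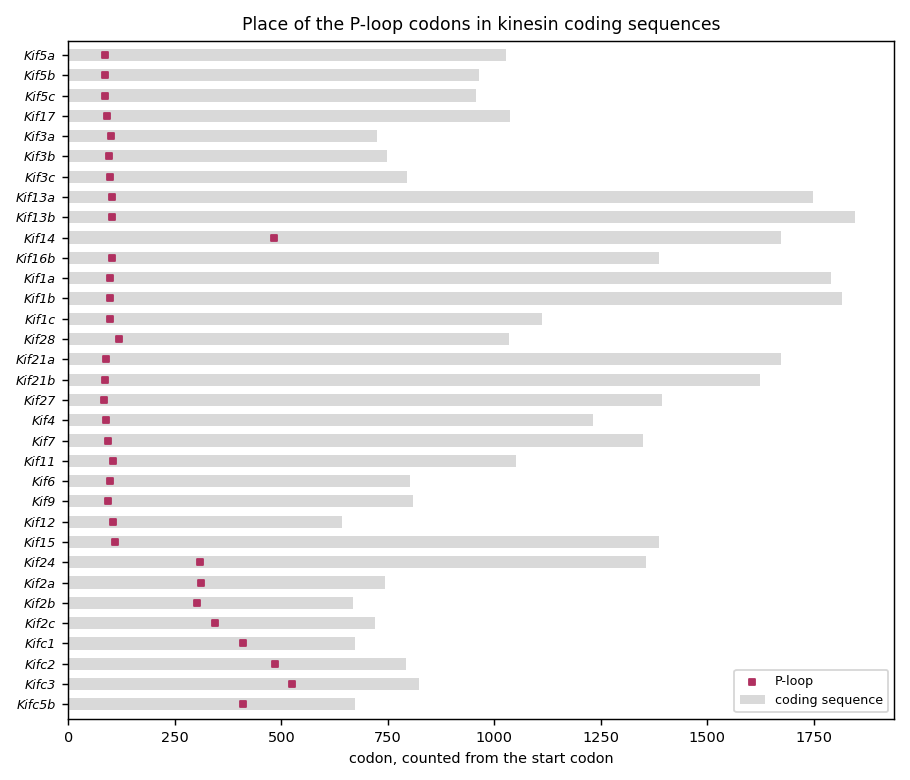
Codon position of the P-loop (red square) along the coding sequence (grey bar, length in codons from the start codon) of the 33 kinesin genes that encode it, ordered by family. The square lies near the start in most families, inside the bar for Kif2a, Kif2b, Kif2c, Kif24 and Kif14, and in the later part for Kifc1, Kifc2, Kifc3 and Kifc5b.

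The coding DNA around the P-loop is shown for the 2 neuronal heavy chains of kinesin-1, for the most abundant motor of kinesin-2, kinesin-4 and kinesin-14, and for a near-identical pair, a choice made after the levels were known. Each line gives 60 bases of the coding strand of GRCm38, 5′ to 3′, from the longest GENCODE vM21 coding transcript, and the 24 capitals are the 8 P-loop codons.
Kif5a: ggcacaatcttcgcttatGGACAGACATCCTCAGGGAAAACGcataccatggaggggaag
Kif5c: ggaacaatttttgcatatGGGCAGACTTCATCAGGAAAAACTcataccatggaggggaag
Kif3a: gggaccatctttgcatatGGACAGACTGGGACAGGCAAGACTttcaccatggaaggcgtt
Kif21a: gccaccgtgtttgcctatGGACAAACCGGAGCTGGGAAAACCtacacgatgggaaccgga
Kifc2: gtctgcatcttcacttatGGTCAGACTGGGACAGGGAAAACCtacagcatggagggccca
Kifc1: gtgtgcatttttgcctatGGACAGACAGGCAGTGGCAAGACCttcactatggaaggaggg
Kifc5b: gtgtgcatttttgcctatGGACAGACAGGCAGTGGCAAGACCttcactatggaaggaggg
Kif5a and Kif5c shared 51 of the 60 bases and 19 of the 24 capitals. Kif3a shared 42 of 60 bases with Kif5c, Kif21a shared 34 and Kifc2 shared 37. The Kifc1 and Kifc5b windows were identical in all 60 bases. The capitals of Kif5a lie at chr10:127248042-127248065 (minus strand), those of Kif5c at chr2:49680203-49680226 (plus), those of Kif3a at chr11:53578861-53578884 (plus) and those of Kifc2 at chr15:76666098-76666121 (plus), each within an exon whose neighbour holds some of the flanking bases. The whole Kifc1 window lies in a single coding exon at chr17:33883366-33883425 (minus), and so does the Kifc5b window at chr17:26924462-26924521 (plus). In Kif21a the capitals themselves cross an intron, between positions 90997708 and 90997838 of chromosome 15 (minus).

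Most motor genes were present in the sorted cells. Of the 54 members, 42 (77.8%) were detected, meaning that they reached a CPM (a share of the library's counts) of 1 in every replicate, against 56.9% of the other 21829 nuclear protein-coding genes. A further 10 members had counts below that level in at least 1 replicate, and Kif12 and Kif2b had 0 counts in all 3 libraries. With 0 counts seen, up to 3 counts are not excluded, and this limit is 0.106 to 0.342 TPM for Kif12 and 0.160 to 0.518 TPM for Kif2b, for counting error only. The median member had 20.9 ± 1.80 TPM, and the median nuclear protein-coding gene 7.07 ± 0.481 TPM. The level was held by few genes. The 16 members at 100 TPM or more made up 86.7% of the summed TPM of all members, with 15 members from 10 to 100 TPM, 12 from 1 to 10 TPM and 11 under 1 TPM. Together the members reached 5347, 4992 and 5029 TPM, or 0.512% of nuclear protein-coding TPM.

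**Figure D2:**
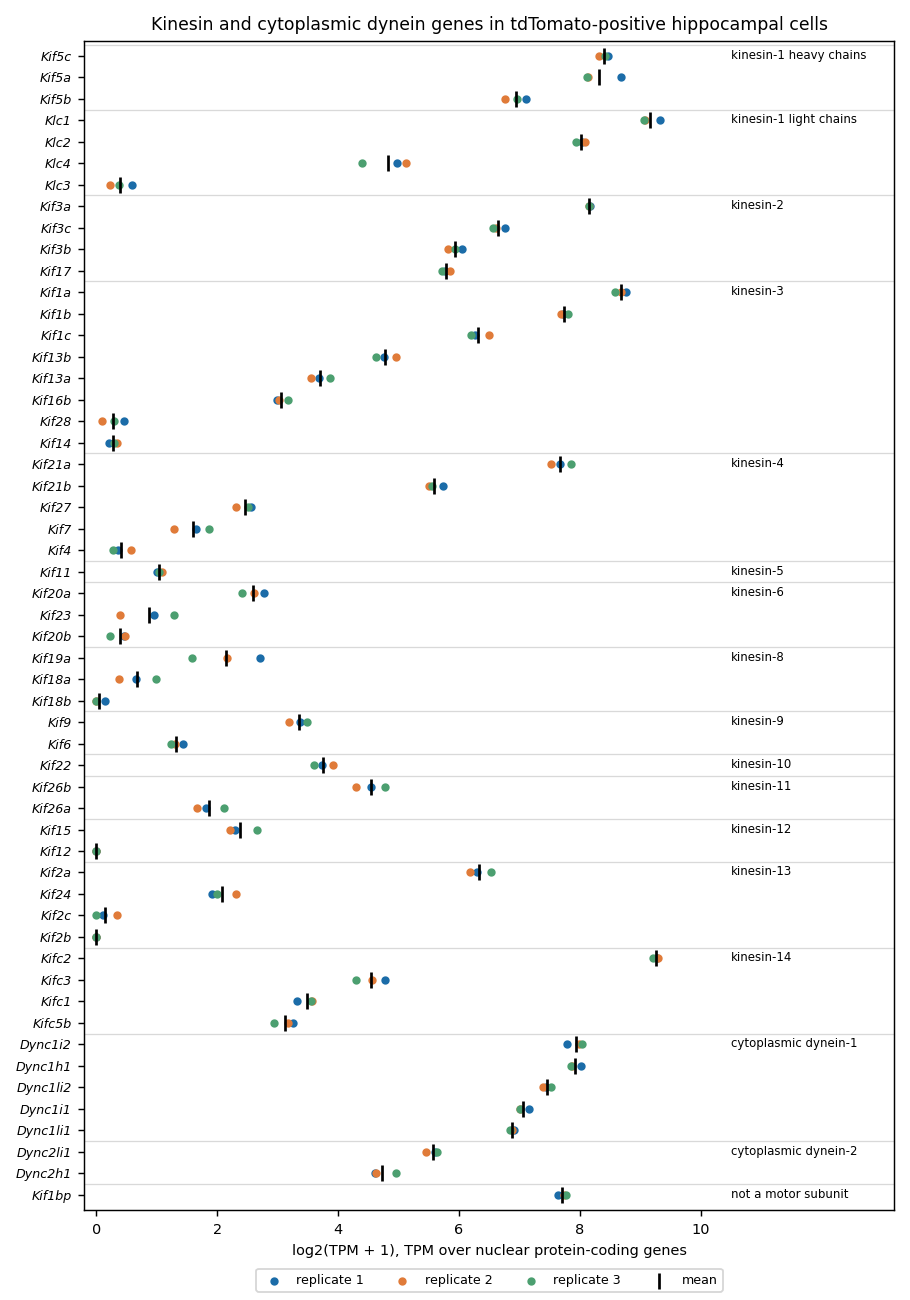
Level of each of the 54 members as log2(TPM + 1), grouped by family and ordered by mean within it, with a point for each replicate and a black bar at the mean of the 3 (the mean of the log2 values of Kifc2 is 9.26). Kifc2, Klc1 and Kif1a sit furthest to the right, most mitotic and ciliary kinesins to the left, and Kif12 and Kif2b at 0.

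Kifc2, a minus-end-directed kinesin-14 of neurons, had the highest mean of the members. Its levels were 616, 625 and 591 TPM (611 ± 17.8), which placed it 165th among nuclear protein-coding genes (chr15:76660641-76668196, plus strand). Klc1, a kinesin light chain enriched in nervous tissue, had 636, 536 and 534 TPM (569 ± 58.5), and lies at chr12:111758849-111807844 (plus). Kifc2 was above Klc1 in replicates 2 and 3 and below it in replicate 1, so their order was not fixed. It also rested on length, since with the longest transcripts Kifc2 had 430 TPM, below Klc1 at 667 TPM and Dync1i2 at 553 TPM. Kif1a, the kinesin-3 that carries synaptic vesicle precursors, followed with 435, 410 and 381 TPM (409 ± 27.1, chr1:93015464-93101951, minus) and was below Klc1 in every replicate. Along the 20 most abundant members, 10 of the 19 neighbouring pairs had overlapping ranges and 10 kept the same order in all 3 libraries. Kif1a stood above Kif5c, Kif3a above Klc2, Dync1h1 above Kif1b, and Kif21a above Dync1li2 with no overlap. With the longest transcripts Kif1a stayed above Kif5c (335 and 253 TPM), but the means of the other pairs changed order. Kif3a then had 232 TPM and Klc2 243, Dync1h1 189 and Kif1b 263, and Kif21a 148 and Dync1li2 163. Kif5c and Kif5a, Klc2 and Dync1i2, Dync1i2 and Dync1h1, Kif1b and Kif1bp, and Kif2a and Kif1c were neighbours whose ranges overlapped.

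All 3 kinesin-1 heavy chain genes were detected. Kif5c, a neuronal heavy chain, had 352, 318 and 341 TPM (337 ± 17.4, chr2:49619298-49774778, plus). Kif5a, the other mainly neuronal heavy chain, which also carries neurofilaments, had 409, 279 and 277 TPM (322 ± 75.5, chr10:127225696-127263348, minus). Kif5b, the heavy chain of most cell types, had 137, 107 and 123 TPM (123 ± 15.2). Kif5a was high in replicate 1 and alike in replicates 2 and 3, and all its values lay above every value of Kif5b. On the log2(TPM + 1) scale Kif5a exceeded Kif5b by 1.37 ± 0.20 and Kif5c exceeded Kif5b by 1.45 ± 0.11, in each case in 3 of 3 libraries. Kif5a against Kif5c gave log2 differences of 0.22, -0.18 and -0.30 (mean -0.09 ± 0.27), so that these 2 genes could not be ordered. Of the summed heavy chain TPM, Kif5c made up 43.4% ± 3.71, Kif5a 40.9% ± 4.21 and Kif5b 15.7% ± 0.799.

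Kinesin-1 light chains were led by Klc1, with Klc2 at 261, 270 and 243 TPM (258 ± 14.2). Klc4 had 30.3, 33.9 and 20.04 TPM (28.1 ± 7.20) from 586, 348 and 120 counts, and was lowest in replicate 3. Klc3 was not detected, with 11, 2 and 2 counts, and 28.1% of its exon bases overlap Ercc2 on the opposite strand. Klc1 exceeded Klc2 by 1.13 ± 0.15 and Klc4 by 4.32 ± 0.36 on the log2 scale, in every library (1.45 and 5.001 with the longest transcripts). The light chain genes summed to 1.10 ± 0.0826 times the TPM of the heavy chain genes, a ratio computed after the levels had been seen. It was 1.51 with the longest transcript as the length of each gene.

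Kinesin-2 carries cargo in cilia and in axons and dendrites as a dimer of KIF3A with KIF3B or KIF3C, joined by the adaptor protein of Kifap3, while KIF17 works as a dimer of itself and carries NMDA receptors in dendrites. Kif3a was among the steadiest members, at 285, 282 and 284 TPM (284 ± 1.44, chr11:53567379-53601967, plus). Kif3c had 107, 96.3 and 93.0 TPM (98.8 ± 7.39), Kif3b 65.2, 55.3 and 59.9 TPM (60.1 ± 4.92) and Kif17 53.4, 56.4 and 51.6 TPM (53.8 ± 2.43). The shared subunit thus lay above both partners in every library, by 2.22 ± 0.11 over Kif3b on the log2 scale, and Kif3c lay 1.52 ± 0.10 below Kif3a (log2 difference -1.52). Kif3a had 1.79 ± 0.119 times the summed TPM of Kif3b and Kif3c. Kifap3, chosen from the cargo adaptor list after its value was seen, had 310, 298 and 308 TPM, 1.08 ± 0.0172 times Kif3a and 0.949 times it with the longest transcripts. Of the exon bases of Kif3c, 40.7% are shared with 1110002L01Rik on the opposite strand, and the strand setting of the counting is not stated, so part of its counts could belong to that gene. Opposite-strand overlap above 10% of exon bases was found for 8 members in all, including Kif7 (20.3%), Kif2a (19.2%, with Dimt1), Kif4 (15.1%) and Kif1bp (10.1%).

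Kinesin-3 held 8 genes, of which 6 were detected. Kif1b, whose products carry mitochondria or synaptic vesicle precursors, had 209, 204 and 223 TPM (212 ± 10.1). Kif1c, a motor of dense-core vesicles, had 75.7, 89.1 and 72.4 TPM (79.1 ± 8.86). Kif13b, Kif13a and Kif16b, which carry membrane cargo such as endosomes, were lower, at 26.6 ± 3.31, 12.02 ± 1.44 and 7.34 ± 0.567 TPM. Kif14, which acts in cytokinesis, had 13, 12 and 6 counts and Kif28 11, 1 and 2, and neither was detected. On the log2 scale Kif1a exceeded Kif1b by 0.94 ± 0.15 in 3 of 3 libraries, but this size rested on length. It was 0.35 with the longest transcript of each gene and 0.03 in CPM, which has no length term. Kif1b exceeded Kif1c by 1.42 ± 0.22 (2.07 with the longest transcripts), and Kif13a lay below Kif13b (log2 difference -1.08 ± 0.33), both in the same order in each library. Kif1bp, which encodes the KIF1-binding protein that holds several kinesins off microtubules, had 197, 211 and 216 TPM (208 ± 9.66), 0.982 ± 0.0478 times Kif1b and 1.06 times it with the longest transcripts.

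Kinesin-4 was mostly Kif21a. This motor, which restrains microtubule growth, had 202, 182 and 229 TPM (204 ± 23.5), and its relative Kif21b had 52.1, 44.2 and 45.7 TPM (47.3 ± 4.24), a log2 difference of 2.08 ± 0.19. Kif27 and Kif7, a regulator of Hedgehog signalling at the cilium, had 4.51 ± 0.497 and 2.06 ± 0.598 TPM, and Kif4, a chromosome-bound motor, had 13, 12 and 3 counts. In kinesin-13, Kif2a, which depolymerises microtubule ends, had 77.1, 71.9 and 91.6 TPM (80.2 ± 10.2). Its mitotic relative Kif2c had 3, 5 and 0 counts, at or below 3 counts in 2 of 3 libraries, and the log2(TPM + 1) difference was 6.19 ± 0.34. The size of this difference rested on the settings, at 8.74 with a pseudocount of 0.1 and 4.65 with TPM over all genes. Kif24, which acts at centrioles, was detected at 3.25 ± 0.651 TPM.

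Within kinesin-14, Kifc2 exceeded Kifc3, which acts at cell junctions and the Golgi, by 4.72 ± 0.21 on the log2 scale, a ratio of 27.7 ± 4.25, and by 4.04 with the longest transcripts. Kifc3 had 26.3, 22.6 and 18.5 TPM. Kifc1, a spindle motor, and Kifc5b, its near copy, were listed with 255, 163 and 94 counts and 186, 93 and 45 counts. Their coding sequences were 98.4% identical over 2019 aligned bases with a longest identical run of 268 bases. In another gene occur 39.7% of the 50-base words of the Kifc1 transcripts and 37.4% of those of Kifc5b. For words of 150 bases, the read length that the authors state, these shares were 7.35% and 7.33%. The levels of Kifc1 and Kifc5b, 10.2 ± 1.03 and 7.72 ± 0.960 TPM, are therefore uncertain as single-gene values. The other compared pairs with an alignment were 63.4% to 73.8% identical, with identical runs of at most 33 bases.

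**Figure D3:**
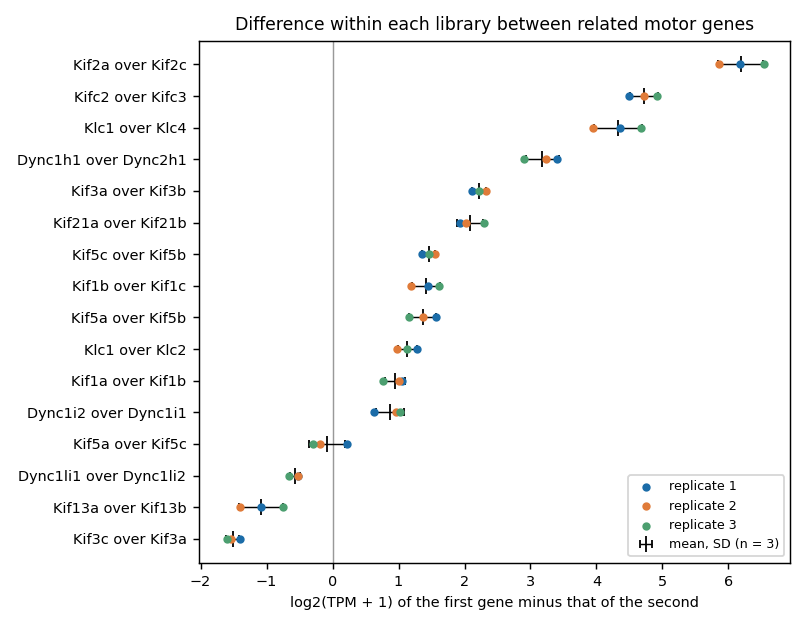
Difference in log2(TPM + 1) between the genes of 16 related pairs, taken within each library, with a point for each replicate and the mean and SD (n = 3) in black; the vertical line marks 0. Only Kif5a over Kif5c has points on both sides of the line, and the differences run from Kif3c over Kif3a at -1.52 to Kif2a over Kif2c at 6.19.

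In total 15 of the 16 pairs kept the same order in all 3 replicates. The exact two-sided sign-flip permutation test over 3 replicates cannot give a p below 0.25, which is the p of each of these 15 pairs (0.267 after Benjamini-Hochberg adjustment over the 16 pairs), and p was 0.75 for Kif5a over Kif5c. No pair could therefore pass 0.05, and the sizes and the SDs carry the comparison.

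Cytoplasmic dynein-1 had the highest mean summed TPM of the families when the heavy and light chains of kinesin-1 were counted apart, though not when they were added up, and the smallest spread relative to its mean. All 5 genes were detected, and their sum was 909, 895 and 915 TPM (906 ± 10.1), while the kinesin-1 light chains, second by mean, were above it in replicate 1 and below it in replicates 2 and 3. Dync1h1, the heavy chain with the motor domain, had 257, 232 and 230 TPM (240 ± 15.1, chr12:110601452-110666945, plus). The intermediate chains, which hold dynactin, were Dync1i2 with 219, 251 and 261 TPM (244 ± 21.6, chr2:71211706-71263303, plus) and Dync1i1, the neuronal form, with 142, 128 and 128 TPM (133 ± 7.72). The light intermediate chains, which bind adaptors, were Dync1li2 with 172, 167 and 181 TPM (173 ± 7.29) and Dync1li1 with 119, 116 and 114 TPM (116 ± 2.28). Dync1h1 and Dync1i2 overlapped, and Dync1li1 lay below Dync1li2 in every library (log2 difference -0.57 ± 0.08). Dync1i2 exceeded Dync1i1 by 0.87 ± 0.21, and by 2.13 with the longest transcript as length. The merged exons of Dync1i2 span 8280 bp against 2631 bp for its longest protein-coding transcript, a 3.15-fold difference, so its level depended on the length more than that of any other detected member: with the shorter length it had 553 ± 46.2 TPM and was the second most abundant member after Klc1.

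**Figure D4:**
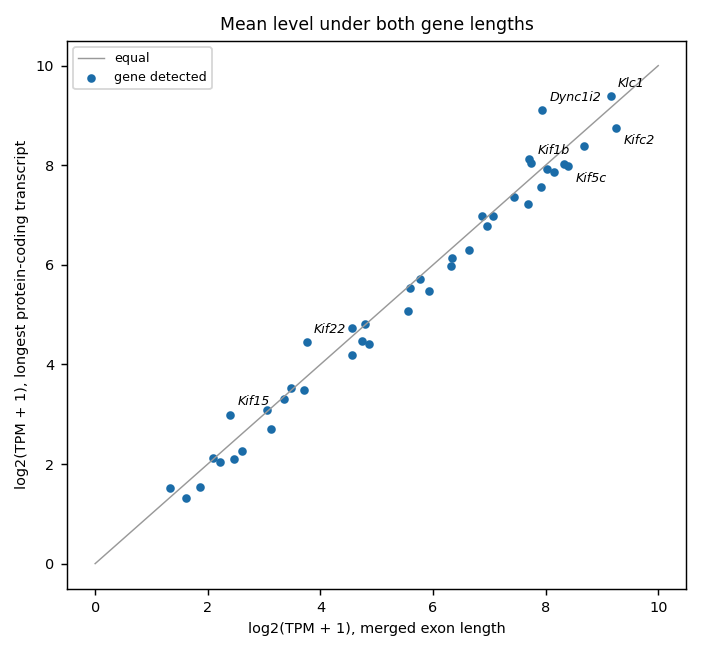
Mean log2(TPM + 1) of the 42 detected members with the merged exon length (x axis) and with the length of the longest protein-coding transcript (y axis); the line marks equal values. Most points lie close to the line or slightly below it, and Dync1i2 lies furthest above it, at 244 TPM on the x axis and 553 TPM on the y axis before the log.

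Relative to Dync1h1, the intermediate chains summed to 1.58 ± 0.152, the light intermediate chains to 1.21 ± 0.0780, and Dctn1, the dynactin subunit that binds dynein, to 1.51 ± 0.0139. With the longest transcripts these ratios were 3.61, 1.53 and 2.09. The kinesin-1 heavy chains summed to 3.25 ± 0.230 times Dync1h1, and to 3.27 with the longest transcripts. These ratios compare mRNA levels and were computed after the levels had been seen. Of the dynein light chain genes, 5 of 9 were detected, near the 56.9% of other nuclear protein-coding genes. Their median was 20.9 ± 3.62 TPM, led by Dynll2 at 474 ± 31.4 TPM. That median was 4.07 TPM with the longest transcripts. All 12 dynactin genes were detected, with a median of 196 ± 9.79 TPM, from 27.4 TPM for Capza1, a capping protein, to 364 ± 25.9 TPM for Dctn1. Of the dynein regulators and activating adaptors, 14 of 16 were detected with a median of 55.0 ± 1.83 TPM, led by Hap1, the huntingtin-associated adaptor, at 289 ± 27.2 TPM, with Spdl1, the mitotic adaptor, at 0.493 TPM. All 21 kinesin cargo adaptor genes were detected, with a median of 157 ± 3.55 TPM, from Grip1 at 16.6 TPM to Clstn1, a vesicle membrane protein that binds the light chains, at 885 ± 45.0 TPM. The same 56.9% stands beside the detected counts of dynactin, the dynein regulators and adaptors, and the cargo adaptors.

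Cytoplasmic dynein-2 moves cargo back to the base of cilia. Dync2h1, its heavy chain, had 23.3, 23.8 and 29.9 TPM (25.7 ± 3.65) and Dync2li1, its light intermediate chain, 47.6, 42.7 and 48.6 TPM (46.3 ± 3.14). The dynein-1 heavy chain exceeded that of dynein-2 by 3.18 ± 0.26 on the log2 scale in all 3 libraries, a ratio of 9.49 ± 1.67. The 25 genes listed for intraflagellar transport, mostly of the cargo trains of kinesin-2 and dynein-2, were all detected, beside the same 56.9%. Their median was 32.6 ± 0.740 TPM. They ran from Ttc30a1 at 3.11 TPM to Ift20, which also works at the Golgi, at 238 ± 18.8 TPM. This list also holds dynein-2 subunits whose symbols the rule did not take, so sums for dynein-2 cover only Dync2h1 and Dync2li1.

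Kif9 and Kif6, the kinesin-9 genes, act in motile cilia and had 9.32, 8.06 and 10.2 TPM (9.19 ± 1.07) and 1.69, 1.47 and 1.35 TPM (1.51 ± 0.174). Kif19a, which sets the length of motile cilia, had 5.54, 3.45 and 2.00 TPM (3.66 ± 1.78) from 188, 62 and 21 counts. The 15 axonemal dynein heavy chains, the motors of beating cilia, had a median of 0.654 ± 0.206 TPM, led by Dnah9 at 17.9 ± 3.06 TPM, and 8 of the 15 were detected, beside the 56.9% given above for other protein-coding genes. Detection used CPM, which has no length term, so a long gene passes it at a lower TPM than a short one. Of the 6 markers of ependyma, a tissue with motile cilia, and of choroid plexus, 1 was detected. The 6 summed to 23.4, 20.9 and 35.0 TPM, with Folr1 at 2, 0 and 0 counts and Tmem212 at 11, 0 and 23 counts. Kif19a was highest in replicate 1 and the sum of these markers in replicate 3, but the markers did not share a single order. Kl, the detected marker, was highest in replicate 2 at 17.3 TPM and lowest in replicate 3 at 14.1 TPM. Tmem212, which was not detected, reached 12.5 TPM in replicate 3. The sum therefore gives no firm contrast with Kif19a, and the part of such cells in the levels was not tested.

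Of 12 listed kinesins of the mitotic spindle, 4 were detected (Kif22, Kifc1, Kif20a and Kif15), against 56.9% of the other nuclear protein-coding genes. The 12 summed to 34.5, 36.7 and 35.5 TPM, 0.694% of the TPM of all members. Kif22, which pushes chromosomes from the poles, had 12.4, 14.04 and 11.1 TPM, above the median protein-coding gene, and a mean of 20.9 TPM with its longest transcript. Kif20a, of cytokinesis, had 5.84, 5.07 and 4.29 TPM, but shares 33.2% of its exon bases with Cdc23 on the opposite strand. Kif15, a spindle motor also described in neurons, had 3.87, 3.64 and 5.28 TPM, and a mean of 6.97 TPM with its longest transcript. Kif11, the kinesin-5 that slides spindle microtubules apart, had 0.995, 1.13 and 1.05 TPM from 40, 24 and 13 counts, just under the detection level. Kif23, Kif18a, Kif20b, Kif4, Kif14, Kif2c and Kif18b were not detected, with at most 61 counts in any library. The 10 proliferation markers had a median of 0.857 ± 0.114 TPM, with 3 detected beside the same 56.9%, and Cdk1 was the lowest at 0.00810 TPM. Kif26b and Kif26a of kinesin-11, whose products bind microtubules without ATP-driven walking, had 22.5 ± 3.92 and 2.65 ± 0.589 TPM.

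By family, the summed TPM ran from 906 ± 10.1 for dynein-1, 855 ± 66.9 for kinesin-1 light chains, 781 ± 103 for kinesin-1 heavy chains, 746 ± 21.9 for kinesin-3 and 651 ± 21.3 for kinesin-14 to 496 ± 12.3 for kinesin-2 and 258 ± 25.1 for kinesin-4. Kinesin-13 had 83.6 ± 9.73 TPM and the 2 members of dynein-2 had 72.0 ± 6.03, and each of the other families stayed under 30 TPM in every library. The heavy chains of kinesin-1 had 898, 704 and 741 TPM and were above dynein-1 in none of the replicates. They were above kinesin-3 in replicates 1 and 3 and below it in replicate 2, where kinesin-3 had 751 TPM. With the longest transcripts the heavy chains summed to 619 TPM, below kinesin-3 at 705 TPM. Dynein-1 then had 1156 TPM. The upper families differed in makeup. Kifc2 and Kif21a made up most of kinesin-14 and kinesin-4, whereas dynein-1 and the heavy chains of kinesin-1 were spread over several genes.

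**Figure D5:**
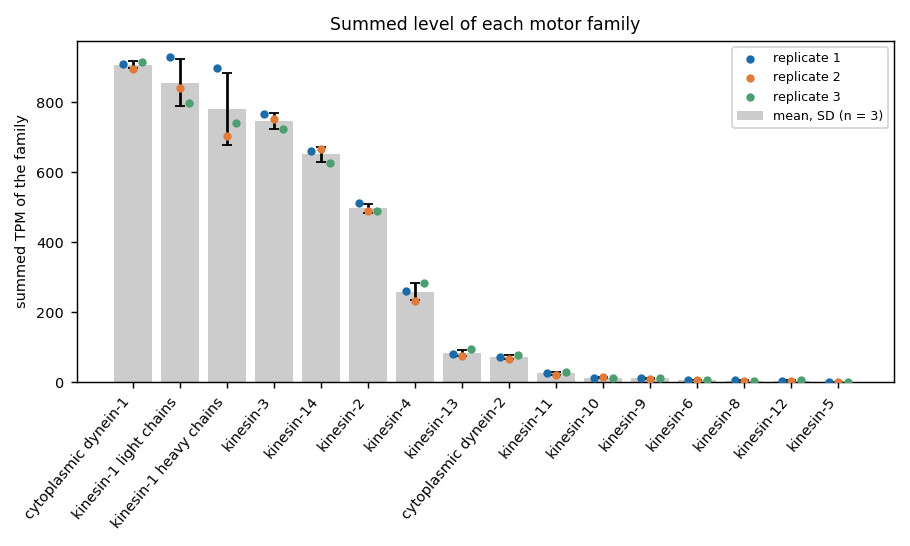
Summed TPM of the members of each motor family that the symbol rule took (bars, mean; error bars, SD over 3 replicates; points, replicates), on a linear axis from 0. Dynein-1 at 906 TPM and the kinesin-1, kinesin-3, kinesin-14, kinesin-2 and kinesin-4 families stand above all others, none of which passes 100 TPM.

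Replicates varied more for some motors than for others. The coefficient of variation (CV) of normalized counts had a median of 10.3% over the 42 detected members, against 8.75% over all detected nuclear protein-coding genes. It ran from 2.36% for Kif1bp to 51.5% for Kif19a, with Dync1li2 at 2.46%, Kif1b at 2.48% and Kif3a at 3.84% among the steadiest. This order depended on the scaling, since in TPM Kif3a (284 ± 1.44) varied less than Kif1bp (208 ± 9.66). Of the detected members 6 were above 20% (Kif19a, Klc4, Kif7, Kif5a, Kifc3 and Kif24), and 11.6% of detected nuclear protein-coding genes were. For Kif5a the CV was 26.6%, where counting alone would give 0.988%, and it was the only member of the 20 most abundant above 20%. For Kif7, with 81, 29 and 31 counts, counting alone would give a CV of 16.1%, where 26.7% was observed. For Kif6 the observed CV of 15.03% was below the 15.9% of counting. Replicate 1 held the highest normalized count of 22 of the 42 detected members (52.4%, against 41.9% of detected nuclear protein-coding genes), including Kifc2, Klc1, Kif1a, Kif5a, Kif5c, Kif3a and Dync1h1. Replicate 3 held the highest for 10 members, among them Kif21a, Kif2a, Dync2h1, Kif26b and Kif15. TPM could order the replicates otherwise. In TPM Kifc2 was highest in replicate 2 (625 TPM). Kif1b and Dync1li2, also highest in replicate 1 by normalized count, were highest in replicate 3 in TPM (223 and 181 TPM). Replicate 1 was also the deepest library and replicate 3 the shallowest, with the most endothelial marker RNA, and whether these differences bear on the motor genes was not tested. Without replicate 1 the mean of Kif5a was 278 TPM.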

How the data were processed

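Poly(A) RNA-Seq of 3 biological replicates of sorted tdTomato-positive hippocampal cells was used as deposited by the authors: raw counts per gene with the merged exon length in bp, from STAR and featureCounts on GRCm38 (mm10) per the submitters' notes, without versions. Annotation release, strand setting and treatment of multimapping reads are not given in the sources used here. Genes were named by GENCODE vM21 (52489 of 52636), and 48 of 54 member spans equalled that release. Read counts were divided by length and scaled to 1000000 over 21883 nuclear protein-coding genes (TPM), and CPM is the count scaled to 1000000 over all genes, and log2 values used a pseudocount of 1. CVs used median-of-ratios size factors (1.78, 0.963 and 0.592). Pairs were compared by an exact two-sided sign-flip permutation test. No count test was run, since there is a single group; edgeR 4.0.16 in R 4.3.3 gave TMM factors. Python 3.11.15, numpy 2.4.6, scipy 1.17.1, pandas 2.3.3, biopython 1.88 and matplotlib 3.10.9 were used, and the steps were checked on simulated data. Members, lists, pairs and tests were chosen with earlier results of these data known. All members could be named, and of each list its highest and lowest gene or one with 0 counts in a library. Alternatives were the base of TPM, length, unit, pseudocount, filter, normalization, summary and leaving out each replicate. The alternative length for the Dync1i2 to Dync1h1 ratio was added after the data were seen. Replicates were separate pools of mice, so SDs hold animal and technical spread. The P-loop window of 1 motor gene and the exon overlap of another are not reported here.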

Additional observations from a re-analysis of the deposited data

How the results depend on the processing

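Depth limits the members under 1 TPM, which had at most 61 counts in a library. In all, 589 alternative values of 111 results were computed, of which 424 kept their direction and stayed within the replicate spread or 1.5 times of a count, 163 moved and 2 changed sign. TPM over all genes of the table accounted for 84 of the values that moved and the longest protein-coding transcript as length for 66. Leaving out each replicate, TMM, total counts and the other detection filters accounted for 0. Leaving a replicate out cannot shift a mean over the replicates beyond their SD, so for means that 0 was fixed in advance. TMM and total counts were applied only to the median CV, and the other detection filters only to the number detected and the median CV.

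With TPM over all genes the median of the members was 6.63 TPM, their sum 1617 TPM and the number at 100 TPM or more 5, where noncoding and mitochondrial genes join the total. The median was 50.9 TPM over detected members, and the mean over all members was 94.9 TPM. The members detected numbered 42 to 48 under the other filters, and 14 to 16 pairs kept their order. The median CV ranged from 8.76% to 11.3%. Kif5a over Kif5c changed sign with the longest transcripts (log2 difference 0.0037), and leaving out each replicate gave -0.24 to 0.017, the upper value without replicate 3. With the longest transcripts the TPM of 5 members moved over 1.5-fold, and Dync1i2 went from 1.02 to 2.95 times Dync1h1. No paired analysis was possible because there is a single group, so that replicate numbers match no samples of another group. The differences between genes were taken within each library.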
